A study of Mus musculus with 15 samples.

Results

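Polycomb group proteins keep developmental and cell-cycle genes silent through chromatin, and the 9 genes described here encode subunits of both main Polycomb complexes: Ezh1, Ezh2, Eed, Suz12 and Jarid2 of Polycomb repressive complex 2 (PRC2), and Cbx2, Cbx7, Bmi1 and Rnf2 of Polycomb repressive complex 1 (PRC1). They were taken by name from the 53801 genes of the table, and all 9 passed the filter on low counts in every comparison. RNA-seq was performed on 15 cultures of primary adult neural stem cells (aNSCs), which grow from the subventricular zone of the mouse brain. All cultures came from mice of 2 months of age, of the mixed strain C57BL6/J-129sv, that carried the Rosa26-CreERT2 transgene, a Cre recombinase expressed in all cell types that enters the nucleus when 4-hydroxytamoxifen (4-OHT) is given. The Fl/+ untreated group held cultures of 5 mice with 1 floxed and 1 normal allele of Trrap (mice 19, 24, 26, 35 and 36), a scaffold protein of histone acetyltransferase complexes. The Fl/+ 4-OHT group held cultures of the same 5 mice given 4-OHT, for 5 days by the labels, in which only the floxed allele can be lost. The Fl/Fl 4-OHT group held cultures of 5 other mice (27, 28, 29, 37 and 39) with both alleles floxed, treated in the same way. Fl/Fl and Fl/+ cultures therefore never shared a mouse, and effects of genotype and of mouse cannot be told apart beyond the spread between mice.

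As background, PRC2 methylates histone H3 at repressed genes, with Ezh2 or its paralog Ezh1 as the enzyme, Suz12 as the scaffold and Eed as the subunit that reads the methyl mark and stimulates the enzyme, while Jarid2 is an accessory subunit that helps to bring PRC2 to its targets. Canonical PRC1 binds that mark through a Cbx protein, such as Cbx2 or Cbx7, and ubiquitinates histone H2A through Rnf2 (Ring1b) or its paralog Ring1, each paired with a Pcgf protein such as Bmi1. Ezh2 is known as the form of dividing cells and Ezh1 as the form of resting cells, and Bmi1 is known for keeping the cell-cycle inhibitors of the Ink4 locus silent during self-renewal of neural stem cells.

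All 9 are protein-coding genes. In GRCm38, the PRC2 members are Ezh1 (ENSMUSG00000006920) at chr11:101191115-101226463 on the minus strand, Ezh2 (ENSMUSG00000029687) at chr6:47530139-47595341 on the minus strand, Eed (ENSMUSG00000030619) at chr7:89954654-89980983 on the minus strand, Suz12 (ENSMUSG00000017548) at chr11:79993106-80034123 on the plus strand and Jarid2 (ENSMUSG00000038518) at chr13:44729474-44921643 on the plus strand. The PRC1 members are Cbx2 (ENSMUSG00000025577) at chr11:119022962-119031270 on the plus strand, Cbx7 (ENSMUSG00000053411) at chr15:79915807-79971119 on the minus strand, Bmi1 (ENSMUSG00000026739) at chr2:18677018-18686629 on the plus strand and Rnf2 (ENSMUSG00000026484) at chr1:151458004-151500955 on the minus strand. Cbx7 overlaps Apobec3 and Rnf2 overlaps Trmt1l on the opposite strand, and reads were assigned by strand.

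The promoters of the members that were lower with Trrap deletion, and of Suz12 as a core subunit that did not pass the test with Trrap deletion, are shown because TRRAP is a cofactor of the transcription factors E2F, SP1 and Myc, whose motifs can be read in them. The sequences are from RefSeq (GRCm38.p6) and run 5′ to 3′ on the strand of the gene, from 250 bases before to 20 bases after the annotated start. 8 of the 9 members were matched, with Cbx2 the exception. Capitals mark matches on either strand to TTTCCCGC or TTTGGCGC (E2F), GGGCGG (SP1) or CACGTG (a Myc E box), and neighbouring matches may overlap.
Ezh2, chr6:47595011-47595280 (minus strand): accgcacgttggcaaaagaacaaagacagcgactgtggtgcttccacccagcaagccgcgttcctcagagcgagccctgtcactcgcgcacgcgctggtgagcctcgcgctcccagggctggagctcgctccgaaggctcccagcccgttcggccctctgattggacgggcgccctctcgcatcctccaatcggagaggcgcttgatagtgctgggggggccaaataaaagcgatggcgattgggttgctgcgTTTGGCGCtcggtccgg
Bmi1, chr2:18676768-18677037 (plus strand): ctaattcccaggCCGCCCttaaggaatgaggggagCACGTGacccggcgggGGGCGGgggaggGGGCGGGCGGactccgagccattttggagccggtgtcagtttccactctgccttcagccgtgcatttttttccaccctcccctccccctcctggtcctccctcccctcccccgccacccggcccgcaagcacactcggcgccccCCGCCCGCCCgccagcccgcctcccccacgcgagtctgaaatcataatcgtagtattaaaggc
Jarid2 first start, chr13:44730524-44730793 (plus strand): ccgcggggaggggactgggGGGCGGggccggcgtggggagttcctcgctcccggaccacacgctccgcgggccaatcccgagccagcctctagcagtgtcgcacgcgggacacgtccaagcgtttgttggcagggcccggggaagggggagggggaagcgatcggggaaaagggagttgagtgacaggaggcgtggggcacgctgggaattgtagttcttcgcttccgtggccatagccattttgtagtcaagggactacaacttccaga
Jarid2 second start, chr13:44731021-44731290 (plus strand): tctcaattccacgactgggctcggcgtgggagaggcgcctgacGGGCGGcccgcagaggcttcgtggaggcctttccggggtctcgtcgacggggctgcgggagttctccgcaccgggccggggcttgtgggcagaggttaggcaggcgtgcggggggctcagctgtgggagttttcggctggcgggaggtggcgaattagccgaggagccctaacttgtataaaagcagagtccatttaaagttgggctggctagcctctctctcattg
Suz12, chr11:79992856-79993125 (plus strand): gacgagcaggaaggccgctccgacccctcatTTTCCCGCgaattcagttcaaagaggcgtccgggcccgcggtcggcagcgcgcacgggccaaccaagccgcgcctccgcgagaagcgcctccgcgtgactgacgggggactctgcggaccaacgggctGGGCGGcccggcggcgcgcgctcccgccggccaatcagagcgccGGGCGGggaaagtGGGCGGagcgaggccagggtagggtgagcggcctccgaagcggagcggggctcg
Ezh2 held 1 E2F match, which begins at position 4 after the start, and no SP1 or E-box match. Bmi1 held 6 SP1 matches, some overlapping, and 1 E box at position -215. Both Jarid2 promoters held 1 SP1 match. Suz12 held 1 E2F match at position -219 and 3 SP1 matches. Among the 8 matched members, 2 held an E2F match, 5 an SP1 match and 1 an E box. Over all 32851 promoters of the same length in the table, the shares were 1.56% for E2F, 35.7% for SP1 and 7.15% for the E box. Such matches are a description of letters, and no binding was measured here.

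The libraries held between 25720034 and 32187097 counts each, so that 3 counts corresponded to between 0.0932 and 0.117 CPM (CPM being the usual scaling of counts to the library total, here with the TMM factors of edgeR). The level of Trrap itself was 190 ± 14.2 CPM in Fl/+ untreated, 164 ± 26.4 CPM in Fl/+ 4-OHT and 104 ± 24.2 CPM in Fl/Fl 4-OHT cultures (mean ± SD, n = 5 each), counted over the whole gene, retained exons included. It was lower in Fl/Fl than in Fl/+ 4-OHT cultures (log2 fold change -0.64, edgeR quasi-likelihood test, adjusted p = 0.0115), but the Fl/Fl culture of mouse 29, at 142 CPM, lay within the range of the Fl/+ 4-OHT cultures of 138 to 204 CPM. The culture of mouse 39 (Fl/Fl 4-OHT), labelled female, had 0.313 CPM of Xist, the RNA of the inactive X chromosome, and 54 CPM of the Y-linked Ddx3y. The culture of mouse 36 (Fl/+ 4-OHT), labelled male, had 74.7 CPM of Xist beside 52.9 CPM of Ddx3y. The untreated culture of mouse 36 had 5.89 CPM of Xist beside 47.7 CPM of Ddx3y. Cultures of the other mice labelled male had 0.154 to 0.541 CPM of Xist. Neural stem cell markers (Nes, Sox2, Pax6, Fabp7 and Prom1) summed to between 2302 and 6182 CPM in every library, whereas microglial markers summed to at most 2.01 CPM and endothelial markers to at most 0.816 CPM.

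Deletion of Trrap was examined by comparing Fl/Fl with Fl/+ cultures, both treated with 4-OHT. 4 of the 9 Polycomb genes were downregulated, namely Cbx2, Ezh2, Bmi1 and Jarid2, and none was upregulated (edgeR quasi-likelihood test with Benjamini-Hochberg adjustment over 15036 genes, adjusted p under 0.05). Among all genes tested, 31.7% passed in either direction and 15.0% were lower. The median log2 fold change of the 9 genes was -0.11, against 0.02 over all genes tested. The same 4 genes had no overlap between the groups, which held for 22.6% of all genes tested. The 5 others, Ezh1, Eed, Suz12, Cbx7 and Rnf2, did not pass the test and overlapped between groups. In the plot of CPM by library, the split between these genes is visible within each complex. In bulk RNA, fewer cells of a type and less RNA per cell cannot be told apart.

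**Figure D1:**
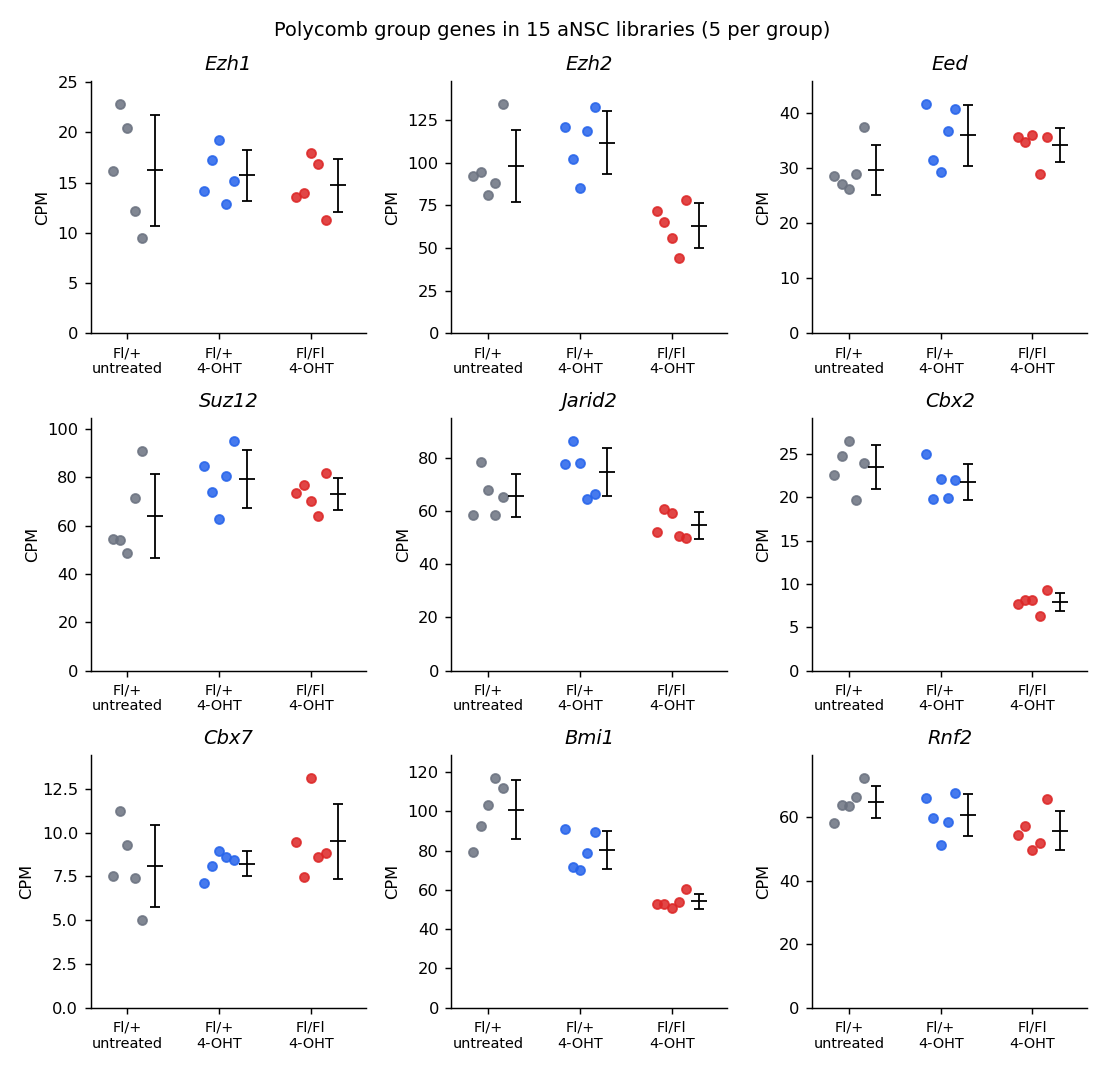
CPM of the 9 Polycomb genes in each library (y axis, from 0), by group (x axis, 5 cultures each); points are libraries and bars give the mean ± SD. All 5 Fl/Fl 4-OHT points of Ezh2, Jarid2, Cbx2 and Bmi1 lie below all 5 Fl/+ 4-OHT points, whereas the groups overlap for the other genes.

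Among the 5 PRC2 members, the enzyme Ezh2 changed most. Its level in Fl/+ 4-OHT cultures was 121, 102, 84.9, 119 and 132 CPM in mice 19, 24, 26, 35 and 36. In Fl/Fl 4-OHT cultures it was 71.6, 65.5, 56.1, 44.2 and 78.2 CPM in mice 27, 28, 29, 37 and 39. The highest Fl/Fl culture was therefore below the lowest Fl/+ 4-OHT culture. The log2 fold change was -0.81 (SE 0.157, 95% interval -1.15 to -0.46, adjusted p = 0.0033), a 1.75-fold lower level.

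Jarid2, the accessory subunit, was lower by a smaller factor. It was measured at 77.5, 86.3, 77.9, 64.5 and 66.3 CPM in Fl/+ 4-OHT cultures of mice 19, 24, 26, 35 and 36, and at 52.3, 60.9, 59.3, 50.8 and 49.9 CPM in Fl/Fl cultures of mice 27, 28, 29, 37 and 39. The gap between the nearest cultures was narrow, but no culture crossed it. The log2 fold change was -0.43 (SE 0.0982, 95% interval -0.65 to -0.22, adjusted p = 0.00691).

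The other core subunits of PRC2 did not pass the test. Suz12, the scaffold, was at 79.5 ± 12 CPM in Fl/+ 4-OHT and 73.3 ± 6.65 CPM in Fl/Fl cultures (n = 5 each), with a log2 fold change of -0.10 (95% interval -0.33 to 0.13, adjusted p = 0.492). Eed, the reader of the mark, was at 36 ± 5.51 and 34.2 ± 3.01 CPM, with a log2 fold change of -0.06 (95% interval -0.30 to 0.19, adjusted p = 0.733). Ezh1, the paralog of Ezh2, was at 15.7 ± 2.52 and 14.7 ± 2.67 CPM, with a log2 fold change of -0.08 (95% interval -0.42 to 0.25, adjusted p = 0.717). These intervals exclude a change of Suz12 or Eed as large as that of Ezh2.

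Among PRC1 genes, Cbx2, a reader of the methyl mark, showed the largest fall of the 9. Fl/+ 4-OHT cultures of mice 19, 24, 26, 35 and 36 had 25, 19.8, 22.1, 19.9 and 22 CPM, from 560 to 740 counts. Fl/Fl cultures of mice 27, 28, 29, 37 and 39 had 7.64, 8.12, 8.16, 6.34 and 9.34 CPM, from 164 to 269 counts. Every Fl/Fl culture was thus below the lowest Fl/+ 4-OHT culture by more than 10 CPM, that of mouse 29 included, whose Trrap level was the highest of its group. The log2 fold change was -1.44 (SE 0.12, 95% interval -1.71 to -1.18, adjusted p = 4.96e-05), a 2.72-fold lower level.

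Bmi1, the Pcgf partner of Rnf2, was also lower. It was at 91, 71.9, 70.2, 78.9 and 89.6 CPM in Fl/+ 4-OHT cultures of mice 19, 24, 26, 35 and 36, and at 53, 52.7, 50.8, 53.7 and 60.4 CPM in Fl/Fl cultures of mice 27, 28, 29, 37 and 39. The 5 Fl/Fl cultures were close to each other, with a coefficient of variation of 6.79%. The log2 fold change was -0.55 (SE 0.0854, 95% interval -0.74 to -0.37, adjusted p = 0.000923).

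Rnf2, the ubiquitin ligase, was at 60.7 ± 6.65 CPM in Fl/+ 4-OHT and 55.8 ± 6.23 CPM in Fl/Fl cultures, and did not pass the test (log2 fold change -0.11, 95% interval -0.31 to 0.10, adjusted p = 0.421). Cbx7, the other Cbx member, was at 8.24 ± 0.714 and 9.5 ± 2.14 CPM (log2 fold change 0.22, 95% interval -0.12 to 0.57, adjusted p = 0.306). The interval of Cbx7 does not reach the value of any of the 4 lower genes.

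Without a count model, log2(CPM + 0.5) was compared by exact permutation of the cultures (two-sided), which gave p = 0.00794 for each of Ezh2, Jarid2, Cbx2 and Bmi1. This unadjusted p is the smallest that 5 against 5 cultures allow. Every gene without overlap reaches it, so it restates the lack of overlap given above. The exact p of the 5 other members lay between 0.246 and 0.563. Within the cultures of mice numbered under 30 (3 against 3), the log2 difference was -0.66 for Ezh2, -0.48 for Jarid2, -1.42 for Cbx2 and -0.56 for Bmi1. Within those numbered over 30 (2 against 2), it was -1.08, -0.38, -1.39 and -0.56. Without the cultures of mice 39 and 36, whose sex-linked RNAs did not match their labels, the same 4 members passed, with log2 fold changes of -0.84 for Ezh2, -0.45 for Jarid2, -1.52 for Cbx2 and -0.57 for Bmi1. This setting was chosen after the data were seen.

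Genes of proliferation moved with the same comparison. Of 15 listed genes, 8 were downregulated and none was upregulated, with a median log2 fold change of -0.71. Over all genes tested, 15.0% were lower. The 3 largest falls were those of Rrm2, a subunit of ribonucleotide reductase (-1.42, adjusted p = 0.00086), Mki67, the antigen Ki-67 (-1.35, adjusted p = 0.00243), and Ccna2, cyclin A2 (-1.25, adjusted p = 0.0025). With 4-OHT none of the 15 passed in the fit without pairing (14 above 0, median log2 fold change 0.37). With the mouse as a replicate block 6 passed as higher, Mki67 among them (adjusted p = 0.0224), beside 2046 of all 14821 genes tested that passed as higher. From untreated to Fl/Fl cultures 3 were lower and 1 was higher (median -0.35), where 30.7% of all genes tested passed in either direction. Of the lower calls, that of Mki67 held in only 5 of 18 alternatives (adjusted p up to 0.11) and that of Rrm2 in 15 of 18 (up to 0.0649). The sum of the list was 1511 to 2409 CPM in Fl/+ 4-OHT, 760 to 1626 CPM in Fl/Fl 4-OHT and 801 to 2829 CPM in Fl/+ untreated cultures. In Fl/Fl cultures of mice 27, 28, 29, 37 and 39 the sums were 1394, 1302, 890, 760 and 1626 CPM, which is the order of their Ezh2 levels given above. The untreated culture with the highest sum, of mouse 36 at 2829 CPM, also had the highest Ezh2 of all libraries at 134 CPM, and that with the lowest sum, of mouse 26 at 801 CPM, had the lowest Ezh2 of its group at 80.8 CPM. The orders differed in Fl/+ 4-OHT cultures, where mouse 35 had the highest sum (2409 CPM) and mouse 36 the highest Ezh2, and among the other untreated cultures. Cbx2, Bmi1 and Jarid2 did not have the order of the sums in Fl/Fl cultures. The part of proliferation in the results of Ezh2, Cbx2, Bmi1 and Jarid2 was not tested.

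Addition of 4-OHT was examined by comparing treated with untreated Fl/+ cultures of the same 5 mice. In these cells 4-OHT also brings Cre into the nucleus, where the floxed allele can be lost. Effects of the compound, of Cre and of losing 1 Trrap allele therefore cannot be told apart in this comparison. Trrap itself had less RNA in the treated culture of every pair. Its edgeR estimate without pairing was -0.21 in log2 units and did not pass the test (adjusted p = 0.234). None of the 9 Polycomb genes passed the test in the edgeR fit without pairing, against 13.8% of all 14821 genes tested. Of all the genes that passed, 53.2% were higher, and 66.2% when libraries were scaled by total counts alone. Of the members, Bmi1 had an unadjusted p under 0.05 (0.0191), and DESeq2 called none. All 9 overlapped between groups. The median log2 fold change of the 9 was 0.03.

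Bmi1 came nearest to the threshold. It was at 79.4, 92.7, 103, 117 and 112 CPM in untreated cultures of mice 19, 24, 26, 35 and 36, and was lower after 4-OHT in 4 of the 5 mice, mouse 19 being the exception. The log2 fold change was -0.33 (SE 0.12, 95% interval -0.59 to -0.06, adjusted p = 0.094). It passed when the dispersion was estimated over all 15 libraries (adjusted p = 0.041), with the mouse number series as a covariate (adjusted p = 0.0451) and without the untreated culture of mouse 19 (adjusted p = 0.0414).

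Suz12 and Eed did not pass in the fit without pairing, but had a higher value after 4-OHT in each mouse. Suz12 was at 54.5, 54.2, 48.6, 71.5 and 90.9 CPM in untreated and 84.6, 74.1, 62.9, 80.7 and 95.1 CPM in treated cultures of mice 19, 24, 26, 35 and 36, and so was higher in 5 of 5 mice (log2 fold change 0.32, adjusted p = 0.254). Eed was at 28.6, 27.2, 26.3, 29 and 37.5 CPM before and 41.7, 31.4, 29.3, 36.8 and 40.8 CPM after 4-OHT, also higher in 5 of 5 mice (log2 fold change 0.28, adjusted p = 0.19). With the mouse as a replicate block, which uses the pairing of these cultures, both passed. The log2 fold change was 0.34 for Suz12 (adjusted p = 0.0289) and 0.28 for Eed (adjusted p = 0.0494). These 2 of the 9 members stand beside 3809 of all 14821 genes tested that passed with the block, in place of 2044 without it. Suz12 also passed without the untreated culture of mouse 36 (log2 fold change 0.48, adjusted p = 0.0443), in which it was highest. Within mouse numbers under and over 30, the log2 differences were 0.48 and 0.12 for Suz12, 0.30 and 0.23 for Eed, and -0.24 and -0.44 for Bmi1. Jarid2 was higher in 5 of 5 mice and Ezh2 in 4 of 5, with log2 fold changes of 0.18 (95% interval -0.06 to 0.42) and 0.19 (95% interval -0.14 to 0.53), and neither passed in any fit. The exact sign-flip test over the 5 mice gave p = 0.0625 for Suz12, Eed and Jarid2, the smallest it can give, so that it cannot pass the threshold.

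Cbx2 was at 22.6, 24.8, 26.5, 19.7 and 24 CPM in untreated cultures of mice 19, 24, 26, 35 and 36, which overlapped with the Fl/+ 4-OHT values given above (log2 fold change -0.11, 95% interval -0.35 to 0.13, adjusted p = 0.552). The log2 fold changes of Ezh1, Cbx7 and Rnf2 were -0.04, 0.03 and -0.09, each with an interval that contained 0.

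In the third comparison, of Fl/Fl 4-OHT with Fl/+ untreated cultures, 3 of the 9 genes were downregulated, against 30.7% of all 15032 genes tested that passed in either direction, and the same 3 had no overlap, against 23.1% of all genes tested. Of all genes that passed, 51% were higher, and 66.3% with scaling by total counts alone. Cbx2 had a log2 fold change of -1.56 (SE 0.135, adjusted p = 5.45e-05), Bmi1 of -0.88 (SE 0.105, adjusted p = 0.000238) and Ezh2 of -0.62 (SE 0.17, adjusted p = 0.0175). Within mouse numbers under and over 30, the log2 differences were -1.57 and -1.44 for Cbx2, -0.80 and -0.998 for Bmi1, and -0.47 and -0.88 for Ezh2, while they were of opposite sign for Suz12 (0.49 and -0.15) and Eed (0.37 and -0.04). This comparison shares its Fl/Fl cultures with the first and its untreated cultures with the second. Jarid2 had -0.26 (adjusted p = 0.076) and passed with DESeq2 (adjusted p = 0.0482) and with the mouse number series as a covariate (adjusted p = 0.0422). Suz12 had 0.21 and Eed 0.22, and both passed as higher without the untreated culture of mouse 36 (adjusted p = 0.0332 and 0.0264), which raised the number of members called from 3 to 5. Rnf2 had -0.20 (adjusted p = 0.109) and passed without the Fl/Fl culture of mouse 39 (adjusted p = 0.0386).

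**Figure D2:**
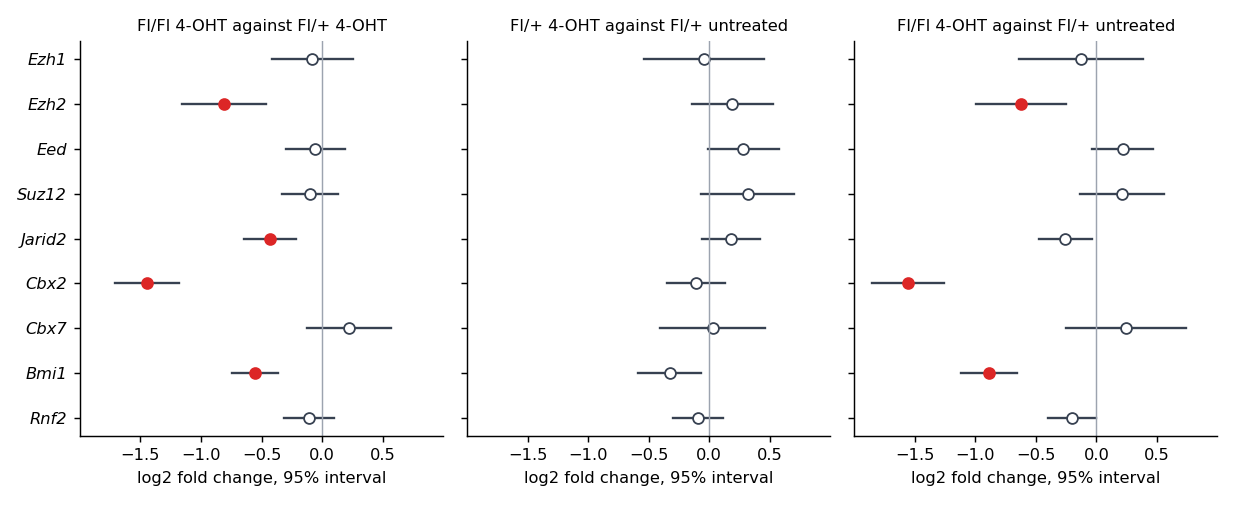
log2 fold change of each Polycomb gene (x axis, point) with its 95% interval (line) in the 3 comparisons; filled red points passed an adjusted p of 0.05 in the edgeR quasi-likelihood test. Cbx2, Ezh2, Bmi1 and Jarid2 lie below 0 in the left panel, from -0.43 to -1.44, no member is filled in the middle panel, and Cbx2, Bmi1 and Ezh2 are filled in the right panel.

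The comparisons can be set side by side for the 4 genes that changed. Cbx2 had log2 fold changes of -0.11 with 4-OHT, -1.44 with Trrap deletion and -1.56 from untreated to Fl/Fl cultures. Bmi1 had -0.33, -0.55 and -0.88 in that order. Ezh2 had 0.19, -0.81 and -0.62, and Jarid2 had 0.18, -0.43 and -0.26. The first and second values share the Fl/+ 4-OHT cultures, so a high or low level there moves both in opposite directions.

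To compare levels between genes, counts were divided by exon length and expressed as TPM, in which every library has the same total. In Fl/+ 4-OHT cultures the order of TPM levels was Bmi1 (79.9 ± 11.7), Ezh2 (66.3 ± 12.6), Suz12 (63.6 ± 11.1), Rnf2 (58.1 ± 7.78), Eed (37.2 ± 6.66), Jarid2 (30.2 ± 3.27), Cbx2 (20.2 ± 2.24), Ezh1 (8.31 ± 1.11) and Cbx7 (5 ± 0.379). The ranges of Bmi1 and Ezh2, Ezh2 and Suz12, Suz12 and Rnf2, and Eed and Jarid2 overlapped. The ranges of Rnf2 and Eed, Jarid2 and Cbx2, Cbx2 and Ezh1, and Ezh1 and Cbx7 did not overlap. In Fl/Fl 4-OHT cultures the order became Suz12 (59.4 ± 6.13), Bmi1 (54.5 ± 3.6), Rnf2 (54.2 ± 6.26), Ezh2 (37.9 ± 8.33), Eed (35.9 ± 3.74), Jarid2 (22.5 ± 2.49), Ezh1 (7.92 ± 1.4), Cbx2 (7.46 ± 1.1) and Cbx7 (5.87 ± 1.36). Ezh2 there overlapped with Eed, and Cbx2 overlapped with Ezh1 and Cbx7. In untreated cultures Bmi1 (89.7 ± 14.8) was again first and Cbx7 (4.39 ± 1.26) last.

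Ratios of 2 genes within a library do not depend on the scaling between libraries. The ratio of Cbx2 to Cbx7 in TPM was 3.53 to 5.37 in Fl/+ 4-OHT, 3.37 to 7.29 in untreated and 0.949 to 1.66 in Fl/Fl 4-OHT cultures, where Cbx2 therefore fell to about the level of its paralog. The ratio of Ezh2 to Ezh1 was 4.93 to 10.3, 4.42 to 15.8 and 2.92 to 7.7 in these groups, which overlapped, and Ezh1 alone had a coefficient of variation of 34.1% in untreated cultures. The ratio of Ezh2 to Eed, a pair added after the values were seen, was tighter. It was 1.66 to 1.86 in Fl/+ 4-OHT, 1.75 to 2.06 in untreated and 0.877 to 1.26 in Fl/Fl 4-OHT cultures. The ratio of Ezh2 to Suz12, added in the same way, was 1.00 to 1.09, 0.915 to 1.29 and 0.511 to 0.72. These ratios are given as a description.

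**Figure D3:**
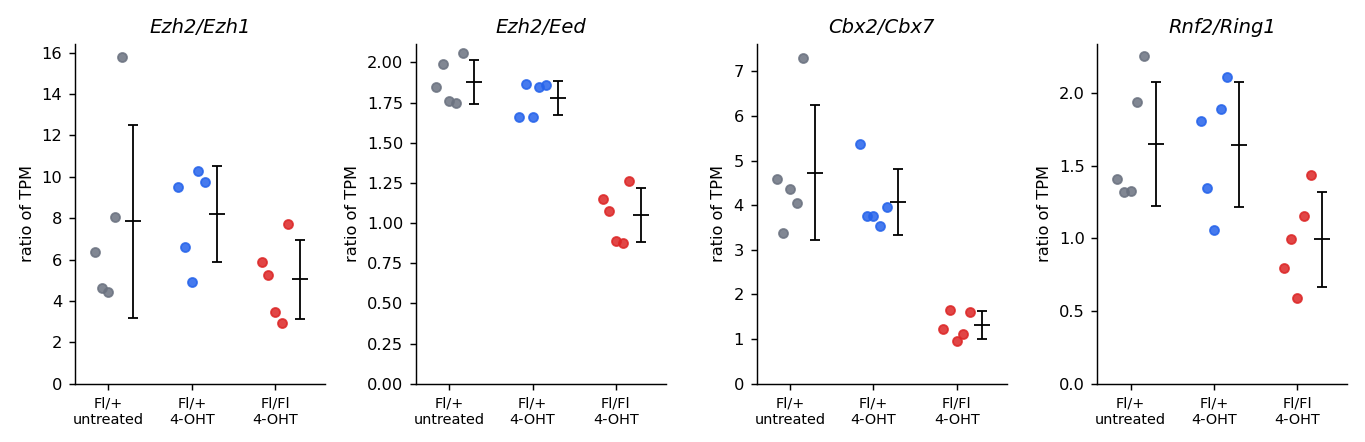
Ratio of the TPM of 2 genes within each library (y axis, from 0), by group (x axis, 5 cultures each); points are libraries and bars give the mean ± SD. The Fl/Fl 4-OHT points of Ezh2/Eed and Cbx2/Cbx7 lie below those of both Fl/+ groups, while those of Ezh2/Ezh1 and Rnf2/Ring1 overlap with them.

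Among the other subunits of PRC1, the calls after Trrap deletion lay in both directions. Of 23 listed genes, all tested, 6 were downregulated and 4 upregulated, with a median log2 fold change of -0.07. Over all genes tested, 15.0% were lower and 16.8% were higher, so the 4 of 23 called higher were near the share of all genes. Upregulated genes included Ring1, the paralog of Rnf2 (log2 fold change 0.66, adjusted p = 0.0234), Cbx6, a paralog of Cbx2 (0.58, adjusted p = 0.000297), and Scmh1, a sterile alpha motif protein of PRC1 (0.34, adjusted p = 0.00966). Downregulated genes included Kdm2b, which brings variant PRC1 to CpG islands (-0.88, adjusted p = 0.000131), Auts2, a subunit of variant PRC1 (-0.87, adjusted p = 0.00191), and Pcgf2, the closest paralog of Bmi1 (-0.71, adjusted p = 0.0331). Cbx6 was at 113 to 137 CPM in Fl/+ 4-OHT and 174 to 204 CPM in Fl/Fl cultures, and Kdm2b at 50.1 to 61.5 and 26.1 to 34.2 CPM, both without overlap. The call of Ring1 was lost without any one of the Fl/+ 4-OHT cultures of mice 19, 35 and 36 or the Fl/Fl cultures of mice 27 and 29, with an adjusted p of up to 0.0591. That of Pcgf2 was lost without the Fl/+ 4-OHT culture of mouse 19 or 26 or the Fl/Fl culture of mouse 27, 28 or 39, with the dispersion over 15 libraries, and without both cultures of conflicting sex-linked RNAs, with an adjusted p of up to 0.0876. That of Scmh1 was lost in the last of these settings (adjusted p = 0.0525), and the calls of Cbx6, Kdm2b and Auts2 held in all 19 alternatives.

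Among the Polycomb genes Cbx2, Cbx6, Cbx7 and Cbx8, the fall of Cbx2 and the rise of Cbx6 changed the composition. Cbx2 made up 22.5 ± 2.32% of the summed TPM of these 4 genes in Fl/+ 4-OHT and 7.49 ± 0.758% in Fl/Fl cultures, and Cbx6 made up 51.8 ± 2.58 and 70.6 ± 2.24%. The summed TPM was 84.4 to 93.8 in Fl/+ 4-OHT and 89.9 to 105 in Fl/Fl cultures and so overlapped. Cbx8 had a log2 fold change of -0.21 and did not pass the test (adjusted p = 0.239). In untreated cultures the share of Cbx2 was 19.1 ± 2.04% and that of Cbx6 was 52 ± 8.79%. Between the H2A ligases, Rnf2 made up 61.3 ± 6.78% of the summed TPM of Rnf2 and Ring1 in Fl/+ 4-OHT and 48.8 ± 8.4% in Fl/Fl cultures, with ranges that overlapped. Ezh2 made up 83.1 to 91.1% of the summed TPM of Ezh1 and Ezh2 in Fl/+ 4-OHT and 74.5 to 88.5% in Fl/Fl cultures, so that it stayed the more abundant enzyme in every library. Bmi1 was 43.9 to 49.8% and 39.8 to 48.4% of the summed TPM of the Pcgf genes, while that sum was 152 to 186 in Fl/+ 4-OHT and 120 to 130 in Fl/Fl cultures, without overlap.

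**Figure D4:**
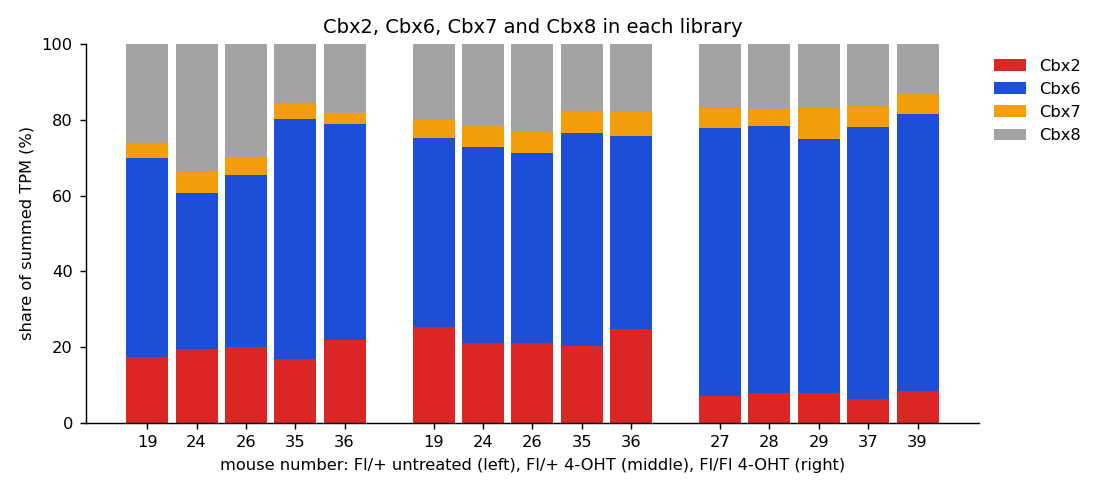
Share of Cbx2, Cbx6, Cbx7 and Cbx8 in the summed TPM of these 4 genes (y axis, %), in each library (x axis, by group and mouse number). The Cbx2 share lies between 6.41 and 8.36% in the 5 Fl/Fl 4-OHT libraries and between 16.9 and 25.3% in the other libraries.

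Of the 9 other PRC2 subunits, 8 were found by symbol and tested, and only Lcor, whose locus also encodes a PRC2 accessory protein, was downregulated with Trrap deletion (log2 fold change -0.85, adjusted p = 0.00431). Lcor was at 5.36 ± 1.87 CPM in untreated, 8.88 ± 1.59 CPM in Fl/+ 4-OHT and 4.89 ± 0.953 CPM in Fl/Fl cultures. It had 0.73 with 4-OHT (adjusted p = 0.0657, passing in 8 of 19 alternatives, the replicate block included) and -0.12 from untreated to Fl/Fl cultures (adjusted p = 0.75). The accessory subunit Mtf2 had -0.40 (adjusted p = 0.0682), and the median of the list was -0.32. Of the 10 genes of the deubiquitinase complex PR-DUB and of the demethylases that remove the PRC2 mark, 3 were downregulated, namely Asxl3 (-1.5, adjusted p = 0.00181) and Asxl1 (-0.44, adjusted p = 0.000297), cofactors of the deubiquitinase Bap1, and the demethylase Kdm6b (-0.73, adjusted p = 0.00328). Bap1 itself had 0.16 (adjusted p = 0.0939). Beside the counts of these lists, 31.7% of all genes tested passed in either direction with Trrap deletion and 15.0% were lower. Of 10 Trithorax group genes, which oppose Polycomb silencing, 5 were downregulated and none was upregulated, with the largest falls in the methyltransferases Kmt2c (-0.56, adjusted p = 0.00364), Kmt2b (-0.46, adjusted p = 0.00588) and Kmt2d (-0.43, adjusted p = 0.0369). The call of Kmt2d was lost without any one of the Fl/+ 4-OHT cultures of mice 24, 26 and 35 or the Fl/Fl cultures of mice 27, 29, 37 and 39 (adjusted p up to 0.0746). In Fl/+ cultures with against without 4-OHT, the calls in these lists were Cbx6 (-0.34, adjusted p = 0.0408) and Yaf2, a subunit of variant PRC1 (-0.28, adjusted p = 0.0264), both lower, and Asxl1 (0.30, adjusted p = 0.0269), higher. Over all genes tested there, 13.8% passed. With the mouse as a replicate block, 3 of the other PRC2 subunits passed as higher, 3 of the other PRC1 subunits as higher and 3 as lower, 3 of the PR-DUB and demethylase genes as higher and no Trithorax gene. In that fit 3809 of all 14821 genes tested passed. With Trrap deletion Cbx6 and Yaf2 were higher (0.58 and 0.22) and Asxl1 was lower (-0.44), and both comparisons share the Fl/+ 4-OHT cultures. The calls of Cbx6, Yaf2 and Asxl1 with 4-OHT were lost in 10, 8 and 5 of 19 alternatives, with adjusted p-values of up to 0.103, 0.0819 and 0.0755, and that of Yaf2 with Trrap deletion in 7 of 19, up to 0.0863. Against untreated cultures, Fl/Fl cultures had 1 of the other PRC1 subunits called higher and 4 lower, among them Cbx8 (-0.87, adjusted p = 0.0152). In that comparison 30.7% of all genes tested passed in either direction. Mtf2 was lower in that comparison (-0.43, adjusted p = 0.0246) and Bap1 higher (0.21, adjusted p = 0.0414).

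**Figure D5:**
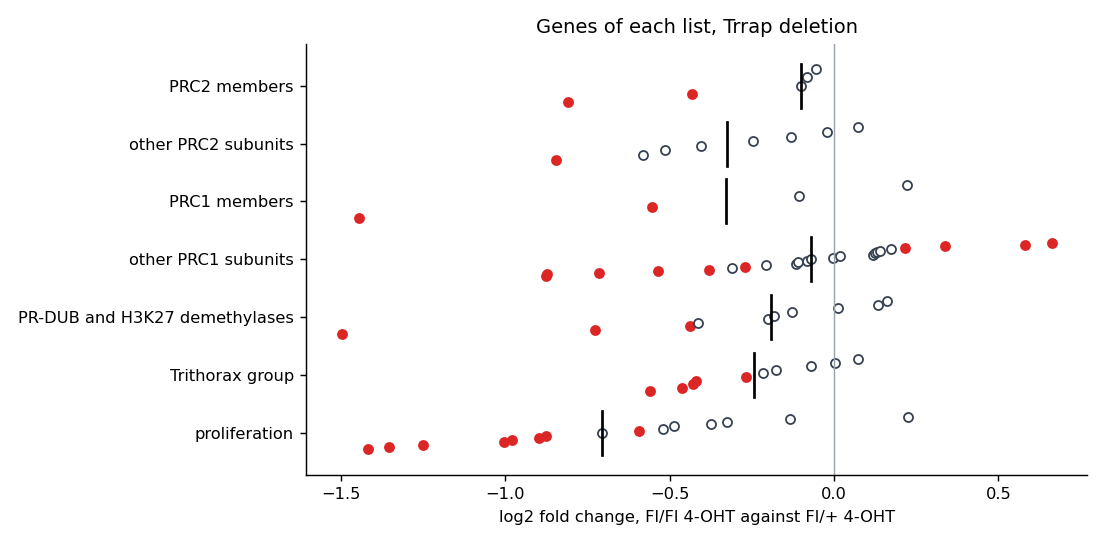
log2 fold change in Fl/Fl 4-OHT against Fl/+ 4-OHT cultures (x axis) of the tested genes of each list (rows; vertical offsets only separate points, black bars are medians); filled red points passed an adjusted p of 0.05. Called genes lie on both sides of 0 among the other PRC1 subunits, from -0.88 to 0.66, and below 0 in the other lists drawn.

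Hox genes and other developmental genes are classical targets of Polycomb silencing. Of 38 Hox genes, the homeobox genes of body patterning, none passed the filter on low counts in any of the 3 comparisons, and their summed level was 0 to 0.139 CPM in Fl/+ 4-OHT and 0.0773 to 0.197 CPM in Fl/Fl 4-OHT cultures. In untreated cultures the sum was 0.0349 to 1.1 CPM. Of 19 other developmental targets, 1 was tested with Trrap deletion. It was T (brachyury), a mesoderm factor named after its values were seen. Its level was 0.233 ± 0.157 CPM in Fl/+ 4-OHT cultures against 0.872 ± 0.653 CPM in Fl/Fl cultures, with overlapping ranges. T did not pass the filter in the comparison of untreated with 4-OHT Fl/+ cultures, so it entered this test through the Fl/Fl cultures, where it was higher. Its call as higher (log2 fold change 1.90, adjusted p = 0.0304) therefore depends on the filter, and no conclusion is drawn from it. In untreated cultures T was at 0.695 ± 0.447 CPM, and it did not pass from untreated to Fl/Fl cultures (log2 fold change 0.36, adjusted p = 0.665). The sums of these 19 genes were 0.488 to 1.77 CPM in untreated, 0.198 to 0.728 CPM in Fl/+ 4-OHT and 0.464 to 2.14 CPM in Fl/Fl cultures.

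The Ink4 locus, a known target of Bmi1, was transcribed in all groups. Mean levels of Cdkn2a, which encodes p16 and p19, were 76.1 ± 17.2 CPM in Fl/+ 4-OHT and 64.1 ± 11.3 CPM in Fl/Fl cultures, and those of Cdkn2b, which encodes p15, were 76.5 ± 16.4 and 57.1 ± 13.2 CPM. Neither passed the test with Trrap deletion (log2 fold change -0.23, adjusted p = 0.303, and -0.41, adjusted p = 0.0821), and Cdkn2b passed there as lower without the Fl/Fl culture of mouse 37 (adjusted p = 0.0111). In untreated cultures they were at 84.2 ± 24.5 and 50 ± 16.2 CPM, and neither passed with 4-OHT (log2 fold change -0.15, adjusted p = 0.679, and 0.62, adjusted p = 0.0985). With the mouse as a replicate block Cdkn2b passed as higher after 4-OHT (adjusted p = 0.0188).

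Cell type markers are given for the same comparisons because composition may move with the groups. Over all genes tested with Trrap deletion, 15.0% were lower and 16.8% were higher. With Trrap deletion, 3 of 5 neural stem cell markers were lower, namely Prom1 (-0.65, adjusted p = 0.00709), Fabp7 (-0.61, adjusted p = 0.00552) and Sox2 (-0.33, adjusted p = 0.0268), and the summed level was 2302 to 3493 CPM in Fl/Fl and 3510 to 4951 CPM in Fl/+ 4-OHT cultures. Of 6 neuron markers, Dcx (-2.51, adjusted p = 0.00123) and Tubb3 (-1.03, adjusted p = 0.0334) were lower and Syp (0.57, adjusted p = 0.00454) was higher, with sums of 587 to 839 and 833 to 1023 CPM. No astrocyte or oligodendrocyte marker passed, with sums of 3935 to 7422 against 4180 to 5710 CPM and of 2362 to 3913 against 2106 to 2843 CPM. Without the Fl/Fl culture of mouse 37, which also had the lowest Ezh2 and Cbx2, the log2 fold change of Mbp was -0.04 in place of 1.33 and that of Mag 0.10 in place of 1.83, and Sox10 passed as lower (-0.71, adjusted p = 0.0266). The calls of Ezh2, Jarid2, Cbx2 and Bmi1 held without that culture. Slc1a3 passed as higher with scaling by total counts alone (adjusted p = 0.048). Of 5 ependymal markers, 3 were tested and Rsph1 was higher (1.78, adjusted p = 0.000715), with sums of 77.3 to 104 against 39.9 to 92.6 CPM. In Fl/+ cultures with against without 4-OHT, where 13.8% of all genes tested passed, 5 of 7 oligodendrocyte markers were higher. They were led by Mag (3.46, adjusted p = 0.0118), Mbp (2.86, adjusted p = 0.0205) and Sox10 (1.94, adjusted p = 0.0163). Of the astrocyte markers, Gfap was higher (3.25, adjusted p = 0.0283) and S100b and Slc1a3 were lower (-1.91 and -0.70). Of the neural stem cell markers, Pax6 was lower (-0.55, adjusted p = 0.0182). The untreated sums were 2331 to 3032 CPM for oligodendrocyte, 4495 to 5902 CPM for astrocyte and 3706 to 6182 CPM for neural stem cell markers, against 4-OHT sums of 2106 to 2843, 4180 to 5710 and 3510 to 4951 CPM. With the mouse as a replicate block, Prom1 passed as higher and Sox2 and Syp as lower after 4-OHT. Among these marker calls, those of Sox2, Tubb3 and Prom1 with Trrap deletion were lost in 6, 9 and 1 of 19 alternatives (adjusted p up to 0.111, 0.109 and 0.19). With 4-OHT, those of Gfap, Pax6, S100b and Mbp were lost in 6, 2, 1 and 1 of 19 (adjusted p up to 0.0619, 0.0527, 0.0526 and 0.0526). From untreated to Fl/Fl cultures, 3 of 5 neural stem cell markers and 5 of 6 neuron markers were lower. Of 7 oligodendrocyte markers 6 were higher and 1 was lower, and of 5 astrocyte markers 1 was higher and 2 were lower. The 3 ependymal markers tested were higher. Over all genes tested in that comparison, 30.7% passed in either direction. The part of these shifts in the values of the Polycomb genes was not tested.

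To describe which genes followed each member most closely, log2 CPM of each gene was centred on its mean over the 15 libraries, and the root mean square difference from the member was taken over the 11141 genes whose mean reached 5 CPM. Nasp, a histone chaperone, and Tmpo, a protein of the nuclear lamina, were nearest to Ezh2 (0.1 and 0.118, against a standard deviation of 0.437 of Ezh2 itself). The mean of Nasp was 213 CPM in Fl/+ 4-OHT cultures, against 124 CPM in Fl/Fl cultures. Zfp184, a zinc finger protein, and Add2, an adducin, were nearest to Cbx2 (0.17 and 0.182, against 0.706), with means of 13.7 and 91.2 CPM in Fl/+ 4-OHT and 5.54 and 34.4 CPM in Fl/Fl cultures. Top2b, a topoisomerase, and Mthfd2l, an enzyme of folate metabolism, were nearest to Bmi1 (0.107 and 0.122, against 0.395), and Kmt2b and Sbf2 to Jarid2 (0.0824 and 0.0926, against 0.232). Among the genes that did not pass with Trrap deletion, Nup153 and Nfatc3 were nearest to Suz12 (0.0751 and 0.0851), Prpf4 and Zw10 to Eed (0.0868 and 0.0918), Dcaf10 and Rwdd1 to Rnf2 (0.0754 and 0.0798), Cyth1 and Fbxl20 to Ezh1 (0.097 and 0.119), and Smarcd2 and Dym to Cbx7 (0.144 and 0.165).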

How the data were processed

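The authors prepared stranded poly(A) libraries from the 15 cultures, pooled them over the same lanes and read single ends. Reads were mapped by the authors to GRCm38 with STAR 2.5.4b and uniquely mapped reads were assigned to Ensembl genes with featureCounts 1.5.0 in stranded mode, so genes on opposite strands were counted apart. As deposited, the table holds raw counts of reads per gene, without normalization, UMIs or pooling of replicates, so that near-identical copies are undercounted and counting limits cover counting error only. All 15 columns were used. Symbols, positions and exon lengths came from GENCODE M21 (GRCm38), and 53706 of 53801 genes were matched.

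The members, lists and tests were chosen with earlier results of these data known. The study's methods used DESeq2. Here edgeR 4.0.16 (TMM, filterByExpr with a minimum count of 10, quasi-likelihood F test, Benjamini-Hochberg adjustment over all genes tested) was run on the 10 libraries of each of 3 comparisons, and DESeq2 1.42.0 was an alternative. Others were its size factors, library size alone, no filter, at least 10 counts in every library, dispersion over 15 libraries, covariates for labelled sex and for mouse numbers under or over 30, a mouse block, and each culture left out. TPM used union exon lengths. Exact tests used log2(CPM + 0.5), and 1 as the other pseudocount. The 5 Fl/+ mice gave both an untreated and a 4-OHT culture, paired here by the mouse numbers of the labels. Deviations from the group means correlated over genes at 0.175 to 0.66 for the same mouse and at -0.577 to 0.358 for different mice. These ranges overlapped. The untreated culture of mouse 19 correlated more with the 4-OHT culture of mouse 26 (0.22) than with its own (0.175), so its pairing rests on the labels. The labels and the methods describe the 4-OHT exposure differently, so no dose is given.

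Genes named beside Trrap and the members were, per list, up to 3 of the largest rises and up to 3 of the largest falls with an adjusted p under 0.05 and a mean of at least 1 CPM with Trrap deletion or 4-OHT, the Ink4 genes, and the 2 genes most like each member. Any other gene named was chosen after its values were seen, as were the ratios beyond Ezh2 to Ezh1 and Cbx2 to Cbx7 and the family shares. Cultures count as replicates, and p-values measure the spread between cultures of different mice. The fit with the mouse as a replicate block instead uses the spread left within mice, and the 4-OHT fit without pairing treats paired cultures as independent. Some genes of the lists are not reported here, and the lists were counted without them.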

Additional observations from a re-analysis of the deposited data

Results flagged for a closer look

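A culture stood apart from the 4 others of its group, by Dixon's test at 95%, in 4 of 48 groups of values of the members, of Trrap and of their ratios, and chance alone flags about 1 in 20. The untreated culture of mouse 36 had the highest Ezh2 (134 CPM, against 80.8 to 94.4 CPM in the others) and the highest Eed (37.5 CPM) of its group, and also the highest summed proliferation genes (2829 CPM). This culture, labelled male, also had 5.89 CPM of Xist. The Fl/Fl culture of mouse 37 had the lowest Eed (28.9 CPM). The Fl/+ 4-OHT culture of mouse 19 had the highest ratio of Cbx2 to Cbx7 (5.37).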

How the results depend on the processing

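With Trrap deletion, the 4 members called remained Cbx2, Ezh2, Bmi1 and Jarid2 in all 19 alternatives, with adjusted p-values of at most 0.0184. Genes called ranged from 3513 to 5474. With 4-OHT, 3170 genes passed with the mouse number series as a covariate and 3809 with the mouse as a replicate block, against 2044 without. With single cultures left out the count was 1271 to 2522, the lowest without the Fl/+ 4-OHT cultures of mouse 19 (1271) and mouse 35 (1311). The members called with 4-OHT, 0 in the fit as reported, were 1 with the dispersion over 15 libraries, 1 with the mouse number series, 2 with the replicate block (Suz12 and Eed), and 0 to 1 with a culture left out. Against untreated cultures, 3 to 5 members were called with a culture left out. The exact tests kept their side of the threshold with a pseudocount of 1. The block changed no other call of a member. The causes were not tested. Below about 0.117 CPM, where most Hox genes lie, a change was not detectable at this depth.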
